A study of Homo sapiens with 8 samples.

Results

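The comparison described here is that of differentiated Caco-2 cells given lipid micelles with differentiated Caco-2 cells given nothing further, measured by ribosome profiling (Ribo-Seq) over small open reading frames (smORFs). Its members are 4 of the 8 libraries of the series, chosen by their labels, with 2 replicates in each group. All 24199 smORFs of the count table were included, singly and summed over the host gene whose transcript holds them, and 22256 of them had at least 1 count in the 4 libraries. Caco-2 is an established line from a human colon adenocarcinoma whose cells, once differentiated, resemble the absorptive cells of the small intestine, so the results come from 1 cell line. The lipid micelles contained BSA, oleic acid and cholesterol. The labels also describe differentiated cells given micelles without lipid, composed of the bile salt taurocholate, and undifferentiated cells. The control cells received no micelles of any kind. The lipid and the carrier therefore cannot be told apart in this comparison, and differences between cells given micelles without lipid and control cells are given beside the named host genes and lists where they bear on this. The dose and duration of the micelle treatment, and whether the lipid micelles also held taurocholate, are not given for these libraries in the sources used here. For a mass spectrometry experiment on differentiated Caco-2 cells, the study describes an overnight incubation with taurocholate or fatty acid micelles in serum-free medium.

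Ribo-Seq sequences the stretches of RNA that a ribosome shields from nuclease, so its reads lie where ribosomes sit on a transcript. A smORF in the 5′ untranslated region of a messenger RNA, upstream of the main coding sequence, is called a uORF, one in the 3′ untranslated region a dORF, and many others lie in RNAs annotated as non-coding. uORFs can restrain the translation of the coding sequence behind them, and some smORFs yield microproteins. In the small intestine, bile salt micelles carry fatty acids and cholesterol to the enterocyte. The enterocyte re-esterifies the fatty acids and packs the lipid with apolipoproteins into chylomicrons. Cholesterol that enters a cell generally lowers the activity of the sterol-sensing transcription factors that drive cholesterol and fatty acid synthesis. A read count on a smORF depends on both the amount of transcript and the number of ribosomes on it, which cannot be told apart here. Likewise, fewer cells of a type and less RNA per cell cannot be told apart in such bulk samples.

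The smORFs that the comparison turned on lie in LINC02732, a long non-coding RNA on the plus strand of chromosome 11 (hg38 chr11:110355130-110407613), between the protein-coding genes RDX and FDX1 and overlapping neither. Its 3 smORFs all lie within annotated exons, outside any annotated coding sequence. IEC_08658 has 14 codons in 1 exon (chr11:110355327-110355368). IEC_08659 has 88 codons spread over 3 exons of 67, 174 and 23 bases, the first starting at position 110355452 and the last ending at position 110406266. IEC_08660 has 22 codons (chr11:110366367-110366432) and lies inside IEC_08659, at its bases 74 to 139 and in another reading frame, so each read on it can count for both. The sequences are shown because LINC02732 had the smallest p-value of the host genes tested by edgeR without the replicate number. No host gene was called in that fit. They were read from the deposited files and match hg38, and capitals mark the first codon.
IEC_08658: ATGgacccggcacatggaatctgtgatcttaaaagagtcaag
IEC_08659: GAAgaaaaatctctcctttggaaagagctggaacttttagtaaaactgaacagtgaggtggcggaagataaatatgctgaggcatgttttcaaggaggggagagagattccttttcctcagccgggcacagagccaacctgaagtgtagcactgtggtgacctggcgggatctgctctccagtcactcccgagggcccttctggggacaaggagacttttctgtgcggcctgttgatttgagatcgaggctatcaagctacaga
IEC_08660: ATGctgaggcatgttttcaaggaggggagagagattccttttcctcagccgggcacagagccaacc

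The 4 libraries held 506382 and 786310 smORF counts in the control cells, replicates 1 and 2, and 703448 and 884711 in the cells given lipid micelles. Levels are given as CPM, the read count relative to the scaled total of the library. Pearson's r of log2 CPM across smORFs was 0.9003 between the control libraries and 0.920 between the lipid micelle libraries, and 0.889 to 0.926 between libraries of the different groups, so the groups stood no further apart than the replicates. Markers were checked as sums of smORF CPM over host genes. Enterocyte genes, of which 7 of 18 had a smORF and CDX2, HNF4A and MYO1A were among those tested, summed to 2344 and 2319 CPM in control cells, 2546 and 2229.7 with lipid micelles and 897 and 615 in undifferentiated cells. Cycling and crypt genes summed to 494 and 584 CPM in control cells, 533 and 499 with lipid micelles and 5431 and 6181 in undifferentiated cells. Both groups of the comparison thus carried the enterocyte markers of differentiated cells at similar sums, while fibroblast markers summed to at most 4.73 CPM and immune markers to at most 11.9 CPM in any of the 4 libraries. Of the goblet cell markers, AGR2 alone was tested (log2 fold change 0.11 ± 0.23, SE), and no enteroendocrine marker had a smORF.

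Few smORFs and host genes separated the groups beyond the spread of their replicates. By edgeR's quasi-likelihood test, fitted without the replicate number, 0 of 15182 smORFs (0%) and 0 of 4966 host genes (0%) were called, where a call needed a log2 fold change of 1 or more in either direction and a Benjamini-Hochberg adjusted p under 0.05. At an unadjusted p under 0.05 there were 708 smORFs (4.66%) and 240 host genes (4.83%), of which 116 host genes (2.34%) were higher and 124 (2.5%) lower with lipid micelles. Both lipid micelle libraries lay above both control libraries for 2776 smORFs (18.3%) and 901 host genes (18.1%), and below both for 2667 smORFs (17.6%) and 927 host genes (18.7%). The median log2 fold change was -0.01 over the host genes, with the 5th and 95th percentiles at -0.79 and 0.81. Nothing in the labels says that the replicates came from separate cultures, so the p-values measure the spread between these libraries, which may be technical.

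The plot of fold change against level places the called host genes among all those tested.

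**Figure D1:**
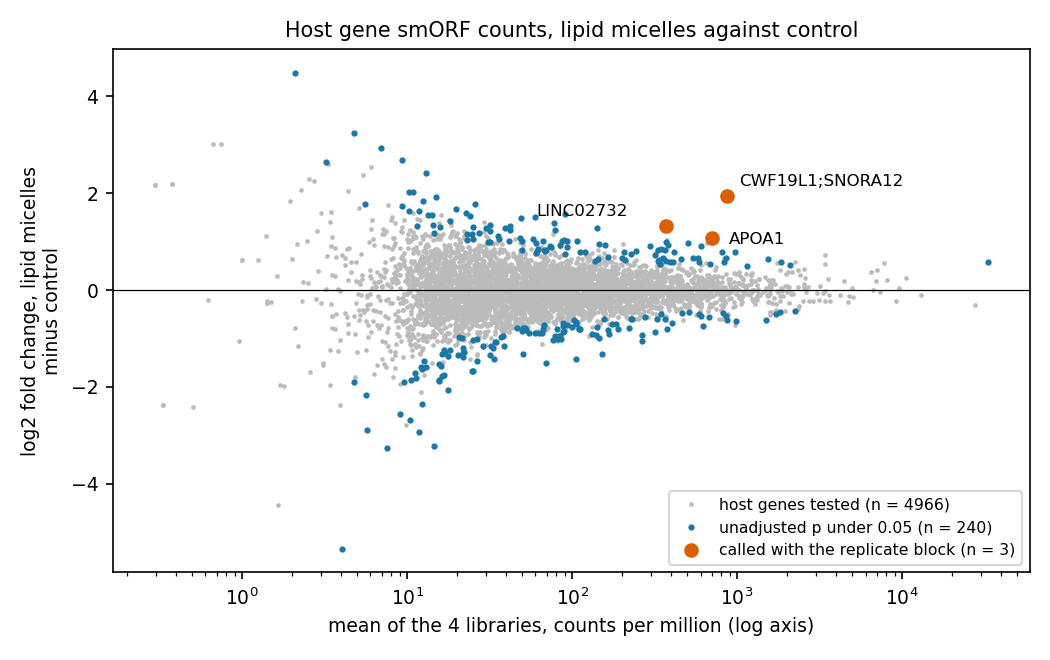
Log2 fold change of summed smORF counts, lipid micelles minus control, against the mean CPM of the 4 libraries on a log axis, with 1 point for each of the 4966 host genes tested. Blue points are the 240 at an unadjusted p under 0.05 and orange points the 3 called with the replicate number as a block, all of which lie above 0.

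The same replicate numbers deviated together weakly among the differentiated groups (correlations of 0.109 to 0.198), and no label says that equal numbers were paired. When this number entered the fit of the 6 differentiated libraries as a block, 3 of 4736 host genes (0.0633%) were called. All were higher with lipid micelles: LINC02732, APOA1 and CWF19L1;SNORA12. In that fit, 334 host genes (7.05%) had an unadjusted p under 0.05. Of 14360 smORFs, 1 (0.00696%) was called, IEC_17557 in CWF19L1;SNORA12, and 992 (6.91%) had an unadjusted p under 0.05. These 3 host genes are described in turn.

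With the replicate block, LINC02732 rose by 1.32 on the log2 scale with lipid micelles, and the fold without it was 2.49. Its smORFs held 104 and 160 counts in the control libraries and 342 and 455 in the lipid micelle libraries. Scaled to library size this was 209.8 and 212 CPM in control cells and 513 and 538 CPM with lipid micelles. The replicates of each group lay close together and the groups did not overlap. The log2 fold change was 1.32 ± 0.26 (± SE here and for every log2 value, edgeR unadjusted p = 0.000227, adjusted p = 0.942), with a 95% confidence interval of 0.76 to 1.88. With the replicate block it was 1.32 ± 0.21, and the edgeR adjusted p was 0.0216, within a range of 0.00346 to 1.0 over all fits. DESeq2, without the block, called LINC02732 as its only host gene (adjusted p = 0.0483). Leaving out any 1 of the 4 libraries gave 1.30 to 1.36. The level was also high with micelles without lipid, at 461 and 410.0 CPM, and low in undifferentiated cells, at 47.4 and 24.7 CPM. The difference between the cells given lipid micelles and those given micelles without lipid was 0.27 ± 0.25 on the log2 scale, close to its standard error.

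All 3 smORFs of LINC02732 were higher with lipid micelles. IEC_08659 had 52 and 78 counts in control cells and 175 and 230 with lipid micelles (log2 fold change 1.38 ± 0.27, edgeR unadjusted p = 6.38e-05). IEC_08658, which shares no base with it, had 26 and 37 counts against 83 and 78, control first (1.11 ± 0.35). The nested IEC_08660 had 26 and 45 against 84 and 147 counts (1.43 ± 0.29). For each of them both lipid micelle libraries lay above both controls, as they did for 18.3% of all smORFs tested. The gene was singled out by the sum of these 3 smORFs, so their agreement is not a separate result. None of the 3 smORFs was called without the replicate term, nor with it alone, where IEC_08659 had an edgeR adjusted p of 0.112. IEC_08659 was called with the block and GC offsets together (edgeR adjusted p = 0.0196, up to 1.0 over all fits), and IEC_08659 and IEC_08660 where no low-count filter was used. The first codon was ATG in IEC_08658 and IEC_08660 and GAA in IEC_08659. The deposited PhyloCSF score, which is positive where the codon changes between species look like those of a coding sequence, was -8.60 for IEC_08658, and IEC_08659 overlaps an annotated repeat.

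**Figure D2:**
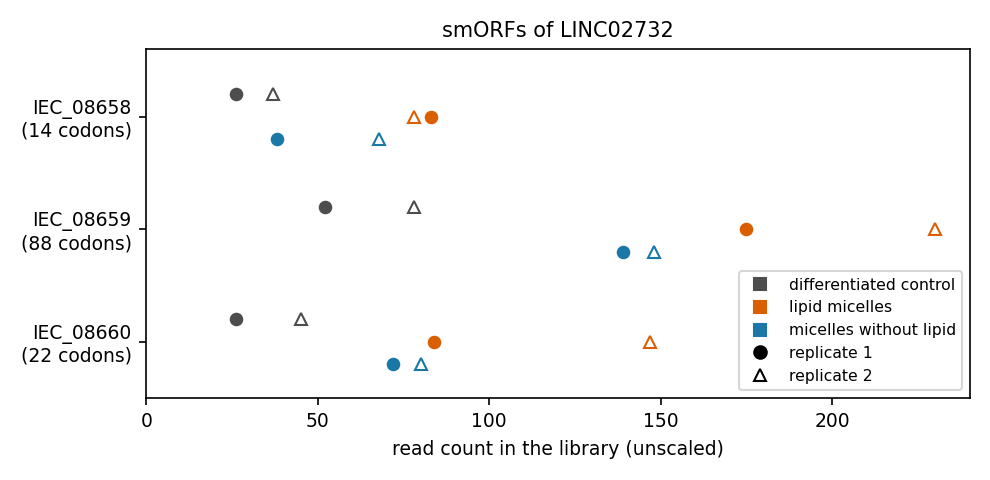
Unscaled read counts (horizontal axis) of the 3 smORFs of LINC02732 in each differentiated library, with control cells in grey, lipid micelles in orange and micelles without lipid in blue, circles for replicate 1 and triangles for replicate 2. For IEC_08659 the lipid micelle libraries sit at 175 and 230 counts and the controls at 52 and 78.

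APOA1 encodes apolipoprotein A-I, the main protein of high-density lipoprotein and a component of chylomicrons that enterocytes secrete. Its single smORF, the uORF IEC_17174 (chr11:116837523-116837621, minus strand), has 33 codons, begins with GAG, and lies wholly in annotated untranslated sequence. Its counts were 155 and 453 in control cells and 472 and 1029 with lipid micelles, or 313 and 600.0 CPM against 708 and 1216 CPM. The groups did not overlap, but replicate 2 was the higher in each of them, and the 2 closest libraries of the groups differed by less than the replicates did. The log2 fold change was 1.07 ± 0.36 (edgeR unadjusted p = 0.0107, adjusted p = 0.942), with a 95% confidence interval of 0.29 to 1.84. With the replicate block, APOA1 rose by 1.10 ± 0.19 (edgeR adjusted p = 0.0387), but with GC offsets in the same fit the adjusted p was 0.103 and the call was lost. The values with micelles without lipid, 544 and 903 CPM, overlapped both groups, and those of undifferentiated cells were 925 and 1328 CPM. The value without a block depended on single libraries, at 0.68 without the first and 1.63 without the second control library and 0.64 without the second lipid micelle library. Over all fits, the adjusted p of APOA1 ran from 0.0149 to 1.0.

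The third called host gene carries the joined name CWF19L1;SNORA12. Its only smORF, IEC_17557, has 8 codons and lies wholly inside SNORA12, a small nucleolar RNA (snoRNA) gene of class H/ACA on the minus strand of chromosome 10 (smORF at chr10:100237236-100237259), itself in the protein-coding gene CWF19L1. snoRNAs of this class guide the conversion of uridine to pseudouridine in other RNAs and are not known as templates of translation. The sequence is shown because a count on it cannot be separated from a fragment of the snoRNA.
IEC_17557: ATGggcctaactctgccacatata

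Counts of IEC_17557 were 52 and 456 in control cells, 270 and 1991 with lipid micelles and 825 and 2798 with micelles without lipid. Replicate 2 exceeded replicate 1 several-fold in each differentiated group, and the control and lipid micelle groups overlapped. Within each replicate number the lipid micelle library was the higher. The log2 fold change of CWF19L1;SNORA12 was 1.94 ± 0.76. It was 0.19 without the second lipid micelle library, 1.19 without the first control library and 3.73 without the second. With the replicate block it was 1.93 ± 0.26 (edgeR adjusted p = 0.00483, from 5.04e-06 to 1.0 over all fits). A second joined name of this kind, EIF3A;SNORA19, has 1 smORF of 18 bases and counts of 37 and 610 in control cells and 216 and 1204 with lipid micelles, which overlap. As a host gene it was called where the block was fitted to the 4 libraries alone (edgeR adjusted p = 0.0152, up to 1.0 over all fits), and its log2 fold change without a block was 0.97 ± 0.85. In all, 253 smORFs overlapped a small RNA gene, and they held 5.13% to 6.34% of the counts of a library.

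The host genes with the smallest p-values on the higher side, apart from LINC02732, were COX14, INAFM2, FABP6-AS1, FAM162A, REXO2, TM9SF2 and TSC22D1. None of them passed the threshold in any fit, and each had an edgeR adjusted p of 0.942 without the replicate term. FABP6-AS1 is an RNA transcribed from the strand opposite FABP6, the gene of the ileal bile acid binding protein (hg38 chr5:160195744-160204826, minus strand). Its 11 smORFs held 329 and 572 counts in control cells, 772 and 1082 with lipid micelles and 704 and 970 with micelles without lipid, against 16 and 18 in undifferentiated cells. All 11 had a positive log2 fold change, from 0.25 to 1.04, in 3 clusters of smORFs that overlap one another, and the host gene value was 0.78 ± 0.20. FABP6-AS1 was named by the sum of these smORFs, so their agreement is not a separate result. No smORF named for FABP6 itself was in the table, and the strand setting of the counting is not given in the sources used here, so reads of FABP6 and of its antisense RNA cannot be told apart.

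COX14, an assembly factor of cytochrome c oxidase, had 555 and 637 CPM in control cells and 1028 and 1019.7 CPM with lipid micelles (0.78 ± 0.20). The values with micelles without lipid, 689.9 and 666 CPM, lay between the 2 groups. All comparisons with control cells share the same control libraries. Within the gene, 3 uORFs that begin at the same ATG (chr12:50112278) and share its reads had log2 fold changes of 1.20 to 1.26. They end at different positions (50112849, 50118510 and 50123366). The 4 uORFs that lie between positions 50112197 and 50112259 ranged from -0.11 to 0.14. The other uORF, IEC_02131, lies apart from these (chr12:50112083-50112148). Over the 8 uORFs the median was 0.32, with 5 higher and 3 lower. The difference between uORFs of the gene was not tested. FAM162A, a mitochondrial protein known as a hypoxia target, had 172 and 372 counts in control cells and 573 and 603 with lipid micelles (0.90 ± 0.24). REXO2, which degrades short RNA oligonucleotides in mitochondria, had 112 and 204 against 412 and 313 counts (0.99 ± 0.26), and 7 of its 7 smORFs tested, which form a single overlapping cluster and share reads, were higher. With micelles without lipid, the log2 differences of these 2 genes from control were 0.29 and 0.21.

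TM9SF2, a membrane protein of endosomes and the Golgi, had 15 and 24 counts in control cells and 58 and 76 with lipid micelles (1.502 ± 0.42). TSC22D1, a leucine zipper protein known as a target of TGFβ, had 97 and 163 against 264 and 324 counts (0.92 ± 0.26). It has 7 smORFs in 4 overlap clusters, and the 6 tested were all higher. Since the gene was named by their sum, their agreement is not a separate result. INAFM2 rested on few reads, with 2 and 3 counts in control cells and 13 and 21 with lipid micelles (2.43 ± 0.62). The log2 differences of these 3 genes from control were likewise positive with micelles without lipid, at 0.90, 0.72 and 3.04.

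On the lower side the leading host genes were EPN3, COPS7A, PCED1B, ANAPC15, MID1IP1, PHB, ZNHIT6 and ATF2;MIR933, again with no call in any fit. COPS7A, a subunit of the COP9 signalosome that removes NEDD8 from cullin ubiquitin ligases, had 805 and 756 CPM in control cells and 458 and 469 CPM with lipid micelles (-0.75 ± 0.19). All 19 of its smORFs tested were lower, and since they form a single overlapping cluster they share reads and are not separate measurements. PHB, which encodes prohibitin, a scaffold protein of the inner mitochondrial membrane, had 207 and 226 against 123 and 134 counts (-1.06 ± 0.31), with 6 of 6 smORFs tested, which form a single overlapping cluster, lower. ANAPC15, a subunit of the anaphase-promoting complex, had 278 and 298 against 199 and 210 counts (-0.80 ± 0.23). In these 3 genes every library held at least 123 counts. Their groups did not overlap, which the rule that named them required. Their log2 differences from control with micelles without lipid were -0.37 for COPS7A, -0.52 for PHB and -0.66 for ANAPC15. MID1IP1 is given with the fatty acid genes.

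The other 4 host genes on this side had fewer counts. EPN3, an endocytic adaptor of the epsin family, had 10 and 24 counts in control cells and 4 and 0 with lipid micelles (-3.23 ± 0.72). Undifferentiated cells held 163 and 136 counts, and leaving out 1 library moved the value of EPN3 between -7.14 and -2.10. PCED1B had 9 and 18 against 1 and 3 counts, and ZNHIT6, an assembly factor of box C/D snoRNA particles, 14 and 16 against 5 and 5 counts. ATF2;MIR933, which joins the transcription factor ATF2 with a microRNA gene, had 110 and 150 against 85 and 92 counts (-0.83 ± 0.26). With micelles without lipid, the log2 differences from control were -0.17 for EPN3, 0.19 for PCED1B, -0.46 for ZNHIT6 and -0.00477 for ATF2;MIR933. The plot of 20 host genes by library shows these groups side by side.

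**Figure D3:**
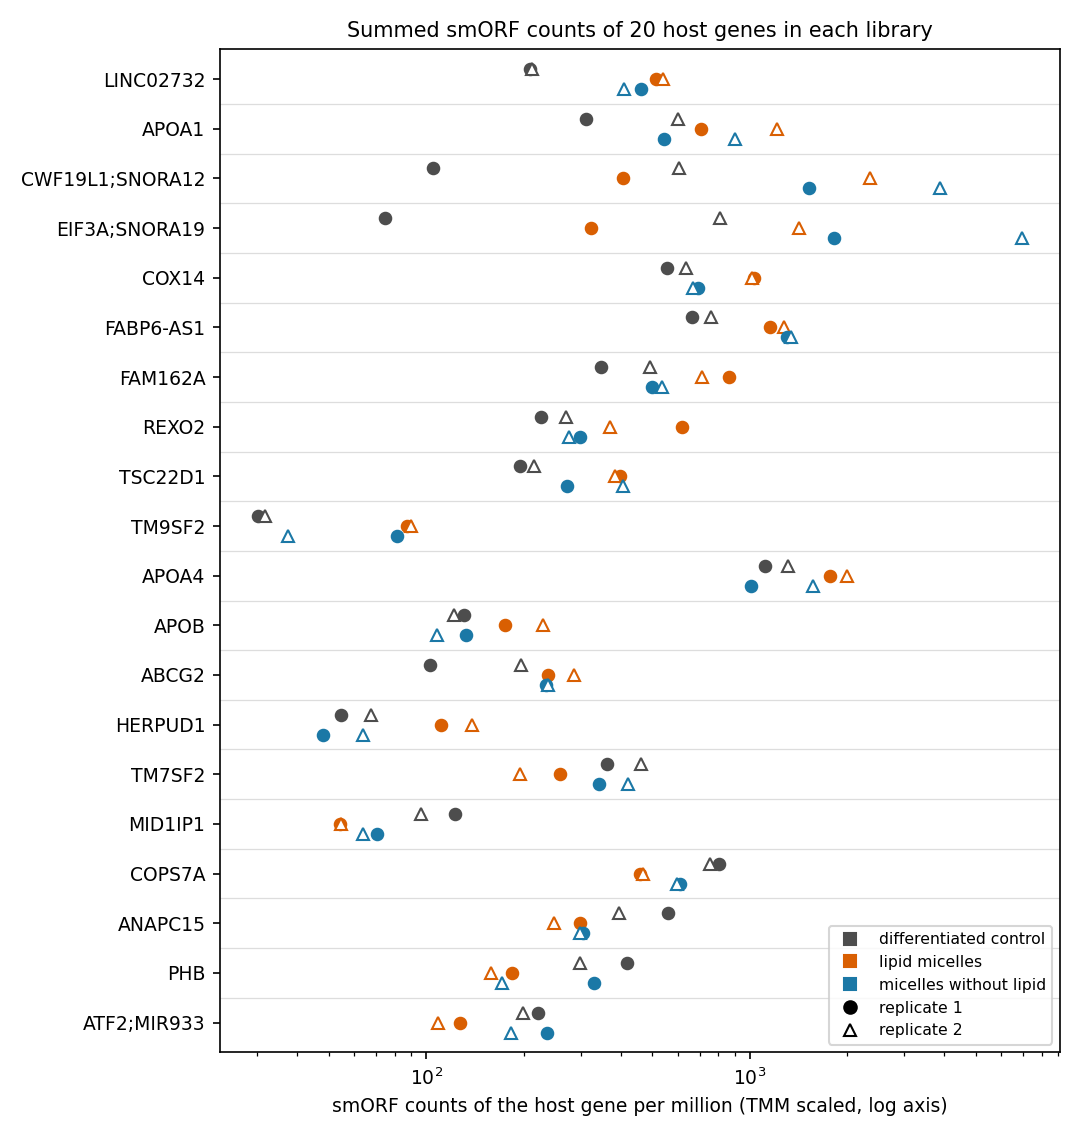
Summed smORF CPM (horizontal log axis) of 20 host genes in the 6 differentiated libraries, with control cells in grey, lipid micelles in orange and micelles without lipid in blue, circles for replicate 1 and triangles for replicate 2. LINC02732 has control libraries at 209.8 and 212 CPM and lipid micelle libraries at 513 and 538 CPM, while the control and lipid micelle libraries of CWF19L1;SNORA12 and EIF3A;SNORA19 overlap.

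Single smORFs with the smallest p-values were mostly uORFs with few counts. On the higher side, besides those of LINC02732, COX14, TSC22D1 and FAM162A, they lay in CUBN, CBR1, EFNB1 and FGG. IEC_17272 in CUBN, which encodes cubilin, an endocytic receptor for the vitamin B12 carrier intrinsic factor, had 30 and 61 counts in control cells and 89 and 131 with lipid micelles (1.03 ± 0.28). IEC_04946 in the carbonyl reductase gene CBR1 had 22 and 29 against 61 and 77 counts (1.16 ± 0.30). IEC_00116 in EFNB1, an ephrin ligand, had 6 and 5 against 18 and 37 (2.001 ± 0.49), and IEC_18067 in the fibrinogen gamma chain gene FGG 8 and 7 against 22 and 34 (1.597 ± 0.44). With micelles without lipid, the log2 differences from control were 0.15 for IEC_17272, 0.02 for IEC_04946, 1.63 for IEC_00116 and 0.88 for IEC_18067. In each of these the edgeR adjusted p was 0.764 or more. That their 2 groups did not overlap was part of the rule by which they were named.

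On the lower side the leading smORF was IEC_13931 in SCAF11, a gene of pre-mRNA splicing, with 12 and 14 counts in control cells and 2 and 1 with lipid micelles (-3.26 ± 0.72). It reached an edgeR adjusted p of 0.0495 where no smORF was filtered, and up to 1.0 in the other fits. IEC_02488 in HEXIM1, an inhibitor of the elongation factor P-TEFb, had 20 and 31 against 4 and 13 counts (-1.84 ± 0.44, and -2.71 to -1.38 with 1 library left out). IEC_14958 in TAF7, a subunit of the general transcription factor TFIID, had 45 and 53 against 25 and 29 (-1.13 ± 0.31), and IEC_16145 in the ankyrin gene ANK3 41 and 43 against 21 and 23 (-1.21 ± 0.34). The others lay in CLASP1, TMEM125, RDH10 and TSEN34, with log2 fold changes from -2.46 to -1.06. The lowest was IEC_01744 in TSEN34, which ran from -4.08 to -1.59 with 1 library left out. Its level was 23.5 and 22.1 CPM without micelles, and no library outside the control group exceeded 9.06 CPM. With 12 and 17 counts in control cells and at most 5 in any other library, IEC_01744 passed the low-count filter through the control libraries alone. Its lower values in the other groups were favoured by that selection and are not a result. With micelles without lipid, the log2 differences from control of the 8 smORFs on this side ran from -1.65 in TSEN34 to 0.07 in RDH10. All of these smORFs were uORFs. A further smORF on this side, IEC_22244 under RPL17;RPL17-C18orf32;SNORD58B, overlaps a small RNA gene and is set apart (-1.10 ± 0.28).

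Host genes of lipid pathways were read as lists, given as counts of members beside the background of all host genes. Of 20 cholesterol synthesis genes, 15 had a smORF and 14 were tested. None was called, 2 had both lipid micelle libraries above both controls and 2 both below, where the shares of all host genes were 18.1% and 18.7%, and the median log2 fold change was -0.09, beside -0.01 for all host genes. Their smORFs summed to 5093 and 5609 CPM in control cells, 5277 and 5284 with lipid micelles and 6056 and 6543 with micelles without lipid. The sums of control and lipid micelle cells overlapped. TM7SF2, which reduces a double bond of the sterol ring, was the member with an unadjusted p under 0.05, at 180 and 349 counts in control cells and 173 and 165 with lipid micelles (-0.87 ± 0.27, edgeR unadjusted p = 0.00742). The 3 members with the most reads were FDPS, which makes farnesyl diphosphate (0.05 ± 0.20), SQLE, the squalene epoxidase (0.06 ± 0.21), and MSMO1, a sterol methyl oxidase (0.19 ± 0.25). All 3 lay within 1 standard error of 0, in groups that overlapped, and the direction of each turned in at least 1 fit without 1 of the libraries.

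Of the cholesterol uptake, efflux and sensing genes, 9 were tested, with a median of 0.04 and none at an unadjusted p under 0.05. Its best counted members were ABCA1, the cholesterol exporter (0.04 ± 0.22, and -0.25 to 0.31 with 1 library left out), NR1H3, the oxysterol receptor LXRα (-0.10 ± 0.24), and MBTPS1, a protease that activates the sterol-sensing transcription factors (0.16 ± 0.26). Of 8 fatty acid synthesis and desaturation genes tested, 5 had both lipid micelle libraries below both controls (18.7% of all host genes) and 1 above (18.1%), with a median of -0.24. FADS2;FEN1, 1 of the 8, had 1 count in each of the 4 libraries and passed the filter through the undifferentiated cells alone. The replicate block, which leaves it out, gave a median of -0.23. The list held 1305 and 1250.3 CPM in control cells and 890.0 and 1080.0 CPM with lipid micelles, which did not overlap, and 1315 and 1101 CPM with micelles without lipid, which overlapped the control sums and lay above those with lipid micelles. MID1IP1, which promotes the assembly of acetyl-CoA carboxylase into its active form, was its member with an unadjusted p under 0.05, with 61 and 73 counts against 36 and 46 (-1.01 ± 0.29, edgeR unadjusted p = 0.00444). Its log2 difference from control with micelles without lipid was -0.71, and the lipid micelles differed from these by -0.30 ± 0.30. SCD, the stearoyl-CoA desaturase that makes oleic acid, had 389 and 557 against 325 and 540 counts (-0.43 ± 0.25). Of its 20 smORFs, 19 were dORFs, and its value was 0.20 from uORFs alone. The list sums rest in large part on SCD, at 785 and 738 CPM in control cells and 488 and 638 CPM with lipid micelles. ACSS2, an acetyl-CoA synthetase, had 124 and 196 against 130 and 202 counts (-0.23 ± 0.26). Neither SCD nor ACSS2 passed at an unadjusted p under 0.05.

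Of the triglyceride and chylomicron assembly genes, 15 of 24 had a smORF and all 15 were tested. Both lipid micelle libraries lay above both controls in 7 of them and below in 2, where the shares of all host genes were 18.1% and 18.7%, and 3 had an unadjusted p under 0.05, all higher. The median was 0.27, and the list summed to 3489 and 3932 CPM in control cells, 4699 and 5568 with lipid micelles and 3805 and 4533 with micelles without lipid. The lipid micelle sums lay above those of both other groups, but this rests in large part on APOA4 and APOA1. APOA4 held 1111 and 1316.5 CPM in control cells and 1770 and 2000 with lipid micelles, and APOA1 313 and 600.0 against 708 and 1216. By sign, 8 members of the list were higher and 7 lower. The 3 members with an unadjusted p under 0.05 were the apolipoprotein genes APOA1, APOA4 and APOB. APOA4, an apolipoprotein that the intestine secretes during fat absorption, had 551 and 994 counts in control cells and 1179 and 1693 with lipid micelles (0.63 ± 0.24, edgeR unadjusted p = 0.0192). APOB, the structural protein of the chylomicron, had 65 and 92 against 117 and 195 counts (0.69 ± 0.28, edgeR unadjusted p = 0.0276). With micelles without lipid, the log2 differences of APOA1, APOA4 and APOB from control were 0.66, 0.09 and -0.07. The difference of the lipid micelles from the micelles without lipid was 0.41 ± 0.35 for APOA1, 0.54 ± 0.24 for APOA4 and 0.76 ± 0.28 for APOB, each with an edgeR adjusted p of 1.0.

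Other members of this list, named after their values were seen except DGAT1, differed in sign. DGAT1, which makes triglyceride in its last step, had a log2 fold change of 0.33 ± 0.24, and its relative DGAT2 had 0.31 ± 0.27. SAR1B, a GTPase that chylomicrons need to leave the endoplasmic reticulum, had 59 and 99 counts in control cells and 113 and 145 with lipid micelles (0.44 ± 0.26). P4HB, the partner of the microsomal triglyceride transfer protein, had -0.10 ± 0.43, APOC3, the neighbour of APOA1, -0.30 ± 0.42, and SURF4, a cargo receptor of lipoproteins, -0.38 ± 0.28. None of these 6 reached an unadjusted p under 0.05, and P4HB and APOC3 had overlapping groups.

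**Figure D4:**
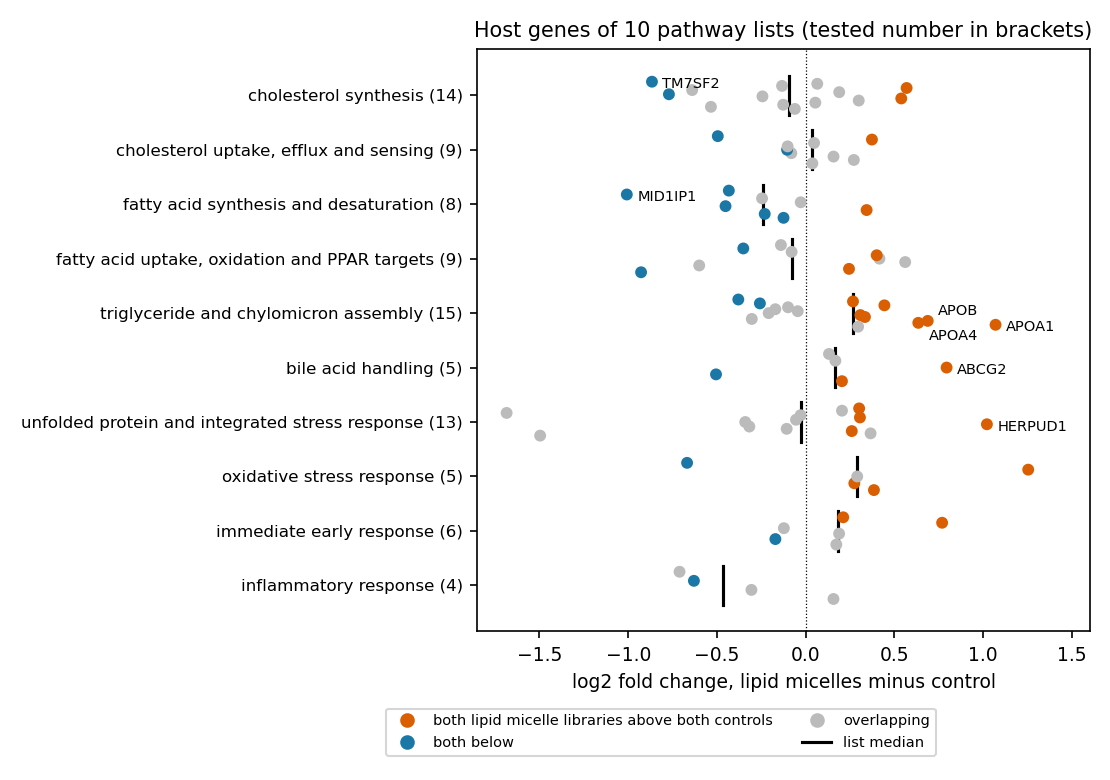
Log2 fold change, lipid micelles minus control (horizontal axis), of each host gene tested in 10 pathway lists, with the number tested in brackets and a black line at the list median. Orange points have both lipid micelle libraries above both controls, blue points both below and grey points overlap, and names mark an unadjusted p under 0.05. In triglyceride and chylomicron assembly 7 of 15 points are orange, and in fatty acid synthesis 5 of 8 are blue. Of all host genes tested, 18.1% had both lipid micelle libraries above both controls and 18.7% both below.

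Fatty acid uptake, oxidation and PPAR target genes numbered 9 tested, 2 with both lipid micelle libraries above both controls and 2 below (18.1% and 18.7% of all host genes), with a median of -0.08. Of these, ACSL3, which activates long-chain fatty acids at lipid droplets, had 4735 and 7453 counts in control cells and 8102 and 9172 with lipid micelles (0.24 ± 0.19). FABP1, the liver-type fatty acid binding protein, had 974 and 868 against 1985 and 991 counts (0.42 ± 0.47), with the groups overlapping and the lipid micelle replicates far apart, so that it was -0.40 without the first of them. HILPDA;HILPDA-AS1, whose first gene encodes a lipid droplet protein that inhibits lipolysis, had 0.40 ± 0.28. With micelles without lipid, the log2 differences from control were 0.32 for ACSL3, 0.41 for FABP1 and 0.17 for HILPDA;HILPDA-AS1. Of 5 bile acid handling genes tested, ABCG2, an efflux transporter, had an unadjusted p under 0.05, with 51 and 148 against 159 and 242 counts (0.79 ± 0.30, edgeR unadjusted p = 0.0219), and the micelles without lipid differed from control by 0.64. The list median was 0.17, with ABCC2 at 0.20 ± 0.20 and NR1I3 at 0.17 ± 0.32. For micelles without lipid minus control the list median was 0.42.

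Of the stress lists, 1 member had an unadjusted p under 0.05. HERPUD1, an endoplasmic reticulum protein that the unfolded protein response induces, had 27 and 51 counts in control cells, 74 and 117 with lipid micelles and 26 and 46 with micelles without lipid. The lipid micelle libraries lay above the other 4 differentiated libraries, with 1.02 ± 0.32 against control (edgeR unadjusted p = 0.00730) and 1.15 ± 0.32 against micelles without lipid (edgeR adjusted p = 0.939). The other 12 members tested of the unfolded protein and integrated stress response list did not reach an unadjusted p under 0.05, and the list median was -0.03. That median was 0.22 with the replicate block, 0.08 with 1 smORF per overlap cluster and 0.09 to 0.26 with 1 library left out. ASNS and SLC7A11 passed the filter through the undifferentiated cells and are not in the block fit. HSPA5, the chaperone BiP of the same response, had 396 and 415 against 498 and 269 counts (-0.34 ± 0.42), while PPP1R15B, a regulatory subunit of the phosphatase that acts on eIF2α, had 0.31 ± 0.19 and VEGFA 0.30 ± 0.21. HERPUD1 and HSPA5 thus differed in sign, the latter with overlapping groups and a value of 0.17 without the second lipid micelle library. The medians were 0.29 for 5 oxidative stress genes, 0.18 for 6 immediate early genes and -0.47 for 4 inflammatory genes, with no member at an unadjusted p under 0.05. With 1 library left out they ran from 0.27 to 0.50, from 0.07 to 0.21 and from -0.64 to 0.08, the inflammatory median being 0.08 without the first control library. The oxidative stress median is the value of SLC48A1, which had 2 and 2 against 3 and 3 counts and passed the filter through the undifferentiated cells, as did SQSTM1 and, of the inflammatory genes, NFKB2. Their best counted members were NFE2L2 (0.27 ± 0.26), BACH1 (0.38 ± 0.28), TXNRD1 (-0.67 ± 0.46), JUN (-0.12 ± 0.28), FOSL2 (0.19 ± 0.22), BTG1 (0.17 ± 0.23), IL6ST (0.16 ± 0.27), IRF1 (-0.31 ± 0.40) and TNFAIP3 (-0.71 ± 0.62), of which JUN, IRF1 and TNFAIP3 turned in sign when the first control library was left out. Among the cycling genes MCM5, named after its value was seen, had 0 and 8 counts in control cells and 20 and 16 with lipid micelles (edgeR unadjusted p = 0.0148), against a median of 0.10 over the 7 tested.

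The base composition of the smORFs moved with the groups. For smORFs of 70% GC or more, the median log2 CPM relative to the mean of the 4 libraries was -0.07 and -0.09 in the control libraries and 0.15 and 0.04 in the lipid micelle libraries. For those under 50% GC it was 0.02 and 0.10 in the control libraries and -0.07 and -0.0013 in the lipid micelle libraries. The groups did not overlap in either class, and the median log2 fold change was 0.17 for the GC-rich smORFs and -0.12 for the GC-poor ones. Both lipid micelle libraries lay above both controls for 26.4% of the GC-rich and 11.9% of the GC-poor smORFs. With an offset for GC content in each library, LINC02732, of 50.5% GC, had a log2 fold change of 1.39 and kept its call with the replicate block (edgeR adjusted p = 0.0255). APOA1, of 68.7% GC, had 1.02 and lost its call with the block (edgeR adjusted p = 0.103). APOA4 was then at 0.70, APOB at 0.64 and DGAT1, of 76.6% GC, at 0.08. The values of the 3 apolipoprotein genes thus moved by less than their standard errors, while the median of the triglyceride and chylomicron list was 0.07 in place of 0.27. The median of the fatty acid synthesis list was -0.23 with the offsets. With offsets and no block edgeR called 0 smORFs and 0 host genes, with 682 and 227 at an unadjusted p under 0.05. Why the base composition differed between these libraries was not tested.

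**Figure D5:**
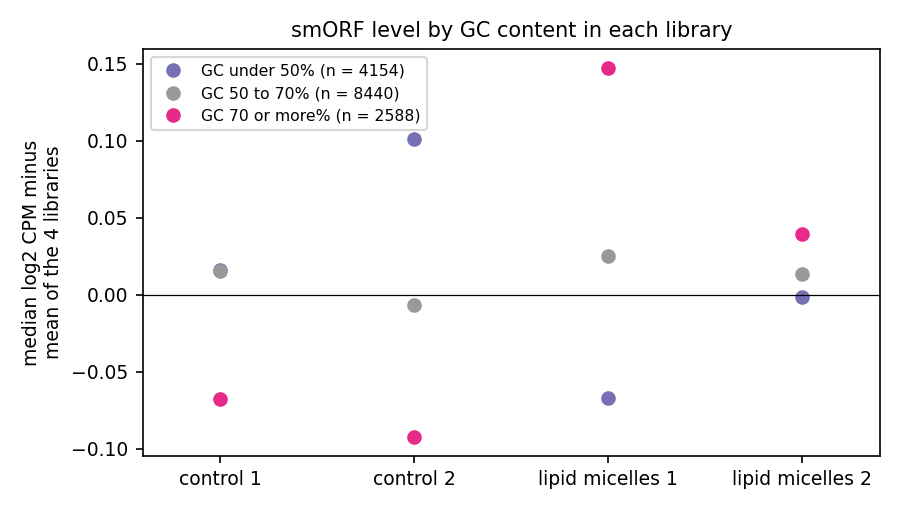
Median log2 CPM of smORFs relative to the mean of the 4 libraries (vertical axis) in each library, for smORFs under 50% GC, of 50% to 70% and of 70% or more. The GC-rich class lies below 0 in both control libraries and above 0 in both lipid micelle libraries.

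By location, uORFs held 71.8% ± 1.05 of the smORF counts in control cells and 73.2% ± 2.04 with lipid micelles (SD, n = 2). smORFs in non-coding RNAs held 23.1% ± 1.16 and 22.1% ± 1.55, and dORFs 3.77% ± 0.155 and 3.34% ± 0.453. No difference in these shares passed an exact permutation test (two-sided, p = 0.667 for each of the 3), and 2 libraries against 2 cannot go below 0.333, which was the smallest p over the 6 location classes. Of the 879 dORFs tested, both lipid micelle libraries lay below both controls for 23.0% and above for 10.8%, where the shares of all smORFs were 17.6% and 18.3%, with a median log2 fold change of -0.14. smORFs that begin with ATG had a median of -0.07 and those with another first codon 0.04.

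The data bound the size of change better for well covered genes. The 95% confidence interval of the log2 fold change lay wholly between -1 and 1 for 1911 of 4966 host genes (38.5%) and 4441 of 15182 smORFs (29.3%). Of host genes at 300 CPM or more this held for 84.0%, and of those under 20 CPM for 0.194%. A change of 2-fold or more could therefore not be excluded at this depth for most of the weakly covered genes, and a missing call does not show that they did not change. A count of 0 allowed up to 5.92 and 3.82 CPM in the control libraries and 4.27 and 3.39 CPM in the lipid micelle libraries (3 counts of the total, counting error alone).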

How the data were processed

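The authors lysed Caco-2 cells in cycloheximide, digested the lysate with RNase I and sequenced the ribosome footprints (Ribo-Seq). Reads were aligned to hg38 (STAR 2.7.11a and GRCh38.p13 in the submitters' processing notes), transcripts were assembled with StringTie and translated in 3 frames, and smORFs of at most 150 amino acids outside known coding sequence were kept where RibORF scored them 0.7 or more. Reads in smORFs were counted by the authors with HOMER, and the deposited values are these raw counts, not normalized. How the counting treated strand and multi-mapped reads is not given in the sources used here. These totals are smORF counts, not sequencing depth, and 17021 of the 24199 smORFs overlap another, so that a read can count more than once.

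Counts were tested with edgeR 4.0.16 (R 4.3.3): filterByExpr on the groups, TMM scaling, a quasi-likelihood fit of the 4 group means over all 8 libraries, with Benjamini-Hochberg adjustment over all features tested. Host gene counts were sums under the deposited gene name, with 1370 smORFs under a joined name kept as features of their own and 1051 without a name left out. CPM values are relative to TMM-scaled totals. Deviations from group means correlated between equally numbered libraries at 0.119 (control and lipid micelles), 0.198 and 0.109 among the differentiated groups and at -0.065 to 0.021 with undifferentiated cells, so the differentiated libraries were taken as paired by number, although no label gives the source of the pairing, and the number was added as a block in a second fit of these 6. Annotation came from GENCODE release 44. The edgeR fits were tested on simulated data. DESeq2 1.42.0 was an alternative, and summaries used pandas 2.3.3, scipy 1.17.1 and matplotlib 3.10.9 under Python 3.11.15.

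Host genes and smORFs are named where a fit without or with the replicate block called them, where they were among the 8 higher or 8 lower with the smallest p of those whose groups do not overlap (1 smORF per host gene), or where they were 1 of the 3 best counted members of a pathway list or had an unadjusted p under 0.05 in it. The members and lists were chosen with earlier results of these data known. The fits with GC offsets, without small RNA overlaps and on the 6 differentiated libraries without a block were chosen after seeing the data. Limits for counts of 0 cover counting error only, since PCR duplicates were not resolved.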

Additional observations from a re-analysis of the deposited data

Results flagged for a closer look

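In the fit of the 6 differentiated libraries with a replicate block, 3 features named in the report differed between the cells given lipid micelles and those given micelles without lipid, that is, the change from control differed between the micelle treatments by a test of the difference itself. The log2 difference of lipid micelles minus micelles without lipid was -1.33 ± 0.24 for the smORF IEC_17557 (edgeR adjusted p = 0.0470), -1.33 ± 0.25 for its host name CWF19L1;SNORA12 (edgeR adjusted p = 0.0391) and -2.41 ± 0.26 for EIF3A;SNORA19 (edgeR adjusted p = 0.000255). IEC_17557 is the only smORF of its host name, so these hold the same reads. Without the block the differences were -0.98 ± 0.64, -0.97 ± 0.73 and -2.32 ± 0.87 in the same order, and none passed after adjustment. In control, lipid micelle and micelle-without-lipid libraries, CWF19L1;SNORA12 had 52 and 456, 270 and 1991, and 825 and 2798 counts, and EIF3A;SNORA19 had 37 and 610, 216 and 1204, and 985 and 4999. All 3 overlap a snoRNA gene, and replicate 2 exceeded replicate 1 in each of these groups. The part of snoRNA fragments in these counts was not tested.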

How the results depend on the processing

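Calls depended on the pairing. The replicate block over the 6 differentiated libraries called 1 smORF and 3 host genes, the block over the 4 libraries alone 0 smORFs and 4 host genes, and the block with GC offsets 3 smORFs (IEC_08659, IEC_17534 and IEC_17557) and 2 host genes (LINC02732 and CWF19L1;SNORA12). Without a low-count filter 4 smORFs (IEC_08659, IEC_08660, IEC_13931 and IEC_17557) and 0 host genes were called, and DESeq2 called 0 smORFs and 1 host gene, LINC02732 (adjusted p = 0.0483), with 224 smORFs and 131 host genes at an unadjusted p under 0.05. The other fits, edgeR with DESeq2 size factors, at least 10 counts in each of the 4 libraries, 1 smORF per overlap cluster, without small RNA overlaps, GC offsets alone, the 6 or the 4 libraries without a block, and those leaving out 1 library, called 0 of both by edgeR, with 302 to 943 smORFs and 155 to 323 host genes at an unadjusted p under 0.05. The lone library of a group is there assumed to vary like the other groups. Intervals within 2-fold held for 1988 smORFs with 1 smORF per cluster, and with 1 library left out for 1646 to 2281 smORFs and 953 to 1157 host genes.

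The cholesterol synthesis median was -0.11 with the replicate block, 0.0424 from uORFs alone, -0.0735 with GC offsets and -0.0771 to -0.0065 with 1 library left out. The triglyceride and chylomicron median was 0.21 with 1 smORF per cluster, 0.0720 with GC offsets, 0.0737 with the block and GC offsets, and 0.21 to 0.26 with 1 library left out. Other list medians that changed sign were those of the unfolded protein and integrated stress response (0.22 with the block, 0.08 with 1 smORF per cluster, 0.09 to 0.26 with 1 library left out), cholesterol uptake (-0.06 to 0.06), fatty acid oxidation (-0.22 to 0.19) and inflammatory (-0.64 to 0.08) and cycling genes (-0.07 to 0.54) with 1 library left out. Directions turned for SCD with uORFs alone (0.20) and, leaving out 1 library, for EIF3A;SNORA19 (-0.45 to 3.56), FDPS (-0.0798 to 0.20), SQLE (-0.0870 to 0.25), MSMO1 (-0.10 to 0.58), ABCA1 (-0.25 to 0.31), FABP1 (-0.40 to 0.95), HSPA5 (-1.07 to 0.17), JUN (-0.30 to 0.0642), IRF1 (-0.70 to 0.16) and TNFAIP3 (-1.27 to 0.0036), none of which had passed the test without a block. Of 1104 recomputed values of named smORFs and host genes, 1074 kept their direction and their side of the threshold. Such agreement was likely beforehand, since many were named by small p-values and separated groups in these same libraries. The cause of the shifts listed above was not tested, beyond the fewer libraries or smORFs that some fits hold.

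With 2 libraries a group and 506382 to 884711 smORF counts each, most genes under 20 CPM could not be bounded within 2-fold. A feature that did not pass the filter of a fit has no value there.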
